A study of Caenorhabditis elegans with 2 samples.

Results

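Chromatin immunoprecipitation followed by sequencing (ChIP-seq) had been run on embryos of Caenorhabditis elegans to find where NHR-237, tagged with enhanced green fluorescent protein (eGFP), sits on the genome. The peaks described here are those on the autosomes that lie away from the promoters of protein-coding genes. They were taken from the list of peaks that the authors kept after the irreproducible discovery rate (IDR) procedure. It selects peaks by how well their ranks agree, although a few kept peaks lacked a region in the list of 1 replicate. A promoter window ran from 500 bp before to 200 bp past the 5′ end of each protein-coding transcript, and a peak was a member if its deposited summit lay in no such window. Of 1626 IDR peaks, 1363 were on the 5 autosomes, and 452 of these, or 33.2% (95% Clopper-Pearson interval 30.7 to 35.7), were non-promoter peaks. The other 911 autosomal peaks were promoter peaks and serve as the comparison. Another 248 IDR peaks were on the X chromosome and 15 on the mitochondrial genome, and neither set was used.

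Both samples were whole mixed-stage embryos of mixed sex from strain OP228, whose genotype is unc-119(ed3) III; wgIs228. They are 2 biological replicates of a single group, and both carry the unc-119 mutation and the integrated transgene wgIs228 that supplies the tagged protein. The labels do not say what drives the transgene or at what level, and they do not separate embryonic stages or cell types. Samples that lack the tag were not analysed here, and each comparison therefore sets peaks of the list against one another or against flanking sequence. The authors deposited 10872 regions for replicate 1 and 30000 for replicate 2 as input to the IDR procedure. The signal value is the strength their peak caller gave each region, has no stated unit and was not scaled between lists. Read counts were not used, so the depth behind each value is unknown.

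Nuclear hormone receptors bind DNA through a pair of zinc fingers and often act at short core sequences such as AGGTCA. The family is greatly expanded in C. elegans, and most of its members have no known ligand. In this compact genome most regulatory sequence lies close upstream of genes. Peaks elsewhere can lie in long introns, between distant genes, or beside genes for small RNAs, such as the small nucleolar RNAs (snoRNAs) that guide RNA modification, the transfer RNAs (tRNAs), and the spliced leader RNAs that are joined to the 5′ ends of messenger RNAs. Genes for tRNAs are read by RNA polymerase III from promoter elements inside the gene, the A box and the B box, and the core of the B box reads GGTTCGA.

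Sequences are shown for 2 kinds of non-promoter peak that the later results count. The 5 stretches shown first are the 120 bp around the summit of peaks without a small RNA gene, from the RefSeq sequence of WBcel235 (ce11), written 5′ to 3′ on the + strand. They include the member of highest signal, the 2 strongest members in introns, and 2 peaks with long repeats chosen after their values were seen. Capitals mark GAGAGA and GCGTCTC on either strand.
upstream of K12H4.5 (chrIII:8043921-8044040, + strand): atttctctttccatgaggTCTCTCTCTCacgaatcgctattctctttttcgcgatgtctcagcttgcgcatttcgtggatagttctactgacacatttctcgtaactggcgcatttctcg
intron of zfp-1 (chrIII:8802078-8802197, + strand): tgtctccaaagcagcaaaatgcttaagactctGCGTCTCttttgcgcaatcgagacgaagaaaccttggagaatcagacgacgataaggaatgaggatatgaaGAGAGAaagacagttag
intron of Y111B2A.12 (chrIII:12612633-12612752, + strand): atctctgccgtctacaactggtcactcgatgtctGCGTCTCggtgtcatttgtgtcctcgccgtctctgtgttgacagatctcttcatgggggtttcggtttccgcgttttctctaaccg
upstream of din-1 (chrII:11635912-11636031, + strand): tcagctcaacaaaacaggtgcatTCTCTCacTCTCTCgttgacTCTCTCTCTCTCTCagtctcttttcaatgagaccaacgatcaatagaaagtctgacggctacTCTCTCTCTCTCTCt
intron of miz-1 (chrIV:10821875-10821994, + strand): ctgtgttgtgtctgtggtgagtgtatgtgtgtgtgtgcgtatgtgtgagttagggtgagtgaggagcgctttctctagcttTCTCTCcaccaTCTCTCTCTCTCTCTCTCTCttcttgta

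The other kind lies at small RNA genes. A tRNA gene under a peak in an intron of C04A2.15 is given whole on its own strand, with the B box core GGTTCGA in capitals. The 70 bases that precede 4 snoRNA genes are given on the strand of the gene, with each match to GTTCNA in capitals, because these letters are the centre of a B box. These genes were also chosen after their sequences were seen.
tRNA gene WBGene00022907 (chrII:6853204-6853285, + strand): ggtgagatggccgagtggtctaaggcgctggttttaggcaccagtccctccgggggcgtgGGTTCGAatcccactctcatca
before snoRNA F32E10.10 (chrIV:7574052-7574121, + strand): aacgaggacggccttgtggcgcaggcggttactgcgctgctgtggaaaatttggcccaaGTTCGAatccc
before snoRNA W03C9.9 (chrII:11960828-11960897, + strand): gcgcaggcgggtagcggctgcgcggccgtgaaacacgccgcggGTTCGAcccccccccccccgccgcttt
before snoRNA Y43F8C.22 (chrV:19643188-19643257, - strand): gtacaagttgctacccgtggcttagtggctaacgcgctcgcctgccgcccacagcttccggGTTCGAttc
before snoRNA T06C12.16 (chrV:15873927-15873996, - strand): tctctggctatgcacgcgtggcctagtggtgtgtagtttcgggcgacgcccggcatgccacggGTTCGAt

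The last pair are the 90 bases that precede the spliced leader RNA genes sls-2.1 and sls-2.2, each with a non-promoter summit inside this stretch. Capitals mark the bases that both share at the same distance from the gene, which are 72 of 90, or 80%.
before sls-2.1 (chrII:5844775-5844864, + strand): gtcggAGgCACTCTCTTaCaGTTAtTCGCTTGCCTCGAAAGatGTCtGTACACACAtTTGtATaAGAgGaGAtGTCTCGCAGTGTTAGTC
before sls-2.2 (chrII:5543508-5543597, + strand): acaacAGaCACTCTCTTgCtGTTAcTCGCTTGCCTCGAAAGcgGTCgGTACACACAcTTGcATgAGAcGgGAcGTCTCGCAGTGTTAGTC

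Non-promoter peaks were mostly intergenic. Of the 452 summits, 289, or 63.9% (59.3 to 68.4), lay in no protein-coding gene, and this class makes up 34.1% of autosomal sequence outside promoter windows. Introns held 146 summits, or 32.3% (28 to 36.8), against 36.3% of the sequence. Exons held 17 summits, or 3.76% (2.21 to 5.95), although they make up 29.7% of the sequence. Promoter windows themselves cover 17.1% of autosomal sequence and held 66.8% of the autosomal IDR peaks. Counting genes of every kind except those of Piwi-interacting RNAs, 257 members, or 56.9%, lay in no annotated gene.

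Signal values of non-promoter peaks ran from 72.6 to 574 with a median of 101, and those of promoter peaks from 72.6 to 793 with a median of 107. Intergenic members had a median of 102, intron members 101 and exon members 113, so the classes overlapped over nearly their whole range. Above the autosomal median of 105 lay 206 of 452 non-promoter peaks, or 45.6%, and 475 of 911 promoter peaks, or 52.1%. The odds ratio was 0.769 (0.609 to 0.970; Fisher's exact test, two-sided, Benjamini-Hochberg adjusted p = 0.0496 over 2 tests). These p-values treat peaks as units and carry no information on variation between embryo preparations. Requiring that no base of the peak touch a promoter window raised the odds ratio to 0.811 and the adjusted p to 0.178. Intron members were above the median in 65 of 146 cases, or 44.5%, and intergenic members in 132 of 289, or 45.7% (adjusted exact p = 0.839; odds ratio 0.955 with limits of 0.626 and 1.45). The share of non-promoter peaks was 18 of the 100 autosomal peaks of highest signal (18%, 11.0 to 26.9) and 150 of the 363 of lowest signal (41.3%, 36.2 to 46.6).

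**Figure D1:**
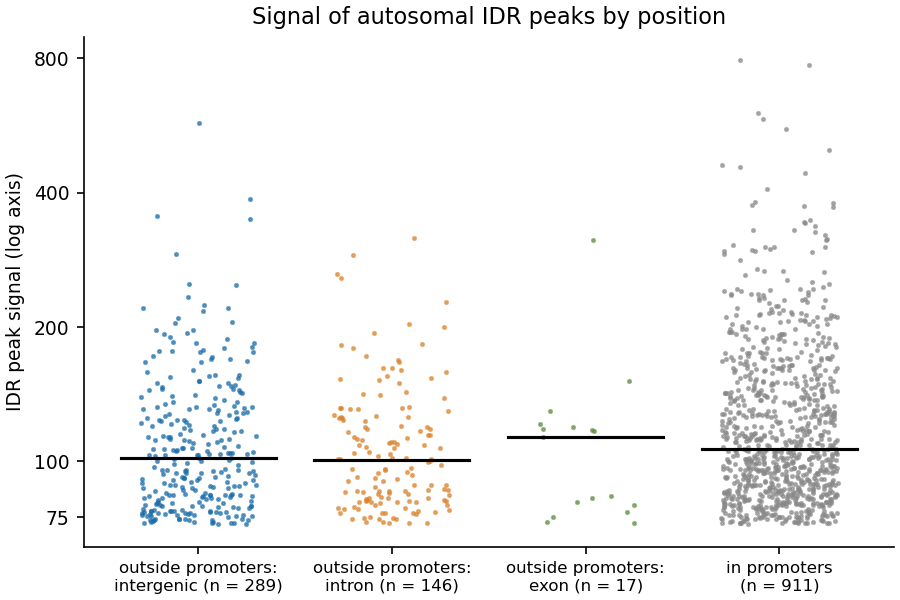
Signal value of every autosomal IDR peak on a log axis, with intergenic, intron and exon members outside promoters on the left and promoter peaks on the right; black lines are medians. The medians of 102, 101, 113 and 107 are close, and the highest values, up to 793, are promoter peaks.

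Nearly every member overlapped a region in both replicate lists, but fewer overlapped a strong region in both. A replicate peak overlapped 450 of 452 non-promoter peaks (99.6%) in both lists, and 901 of 911 promoter peaks (98.9%). The IDR procedure selects for agreement, so these shares are high partly by construction. An overlap of 1 bp with any of the 10872 or 30000 regions was also enough. Among the 1626 regions of highest signal, 386 members had an overlapping region in replicate 1 and 371 in replicate 2. Both held for 312 members (69.0%) and for 657 promoter peaks (72.1%). Replicate signals of the members ran from 17.9 to 295 (median 51.8) in replicate 1 and from 14.1 to 295 (median 52.9) in replicate 2. Across members the signals of the replicates had a Spearman's rho of 0.497, and across promoter peaks 0.603, given as descriptions since all points share the same 2 libraries. Both replicates placed their own summit within 100 bp of the IDR summit for 418 members (92.5%) and 875 promoter peaks (96.0%). A member in an intron of cutl-18 (chrV:11314006-11314401, signal 125), beside the snoRNA gene T03F7.8, had no replicate 2 peak, and an intergenic one near Y39E4B.6 (chrIII:13068307-13068702, signal 74.5) had no replicate 1 peak. Some close members shared a replicate peak with another IDR peak, 27 in replicate 1 and 26 in replicate 2, so their replicate values are not separate measurements.

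**Figure D2:**
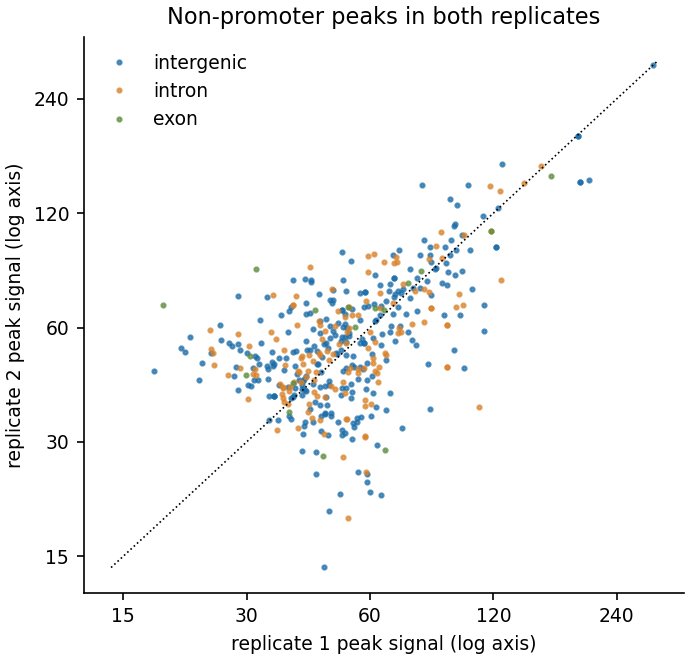
Replicate 2 signal against replicate 1 signal for the members overlapped by a peak in both replicates, both on log axes, coloured by class; the dotted line marks equal signal. Members of high signal lie near the line, and the weaker ones spread widely around it.

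The member of highest signal lay upstream of K12H4.5 (WBGene00019680; peak at chrIII:8043850-8044106). Its signal was 574 in the IDR list, 295 in replicate 1 and 295 in replicate 2, and its summit was 506 bp from the gene's 5′ end, only just outside the promoter window. The next 3 were beside non-coding genes. The peak at sls-2.1, a spliced leader RNA gene (chrII:5844652-5845047), had a signal of 387, with 193 in replicate 1 and 191 in replicate 2. A peak 575 bp upstream of tag-340 and beside the non-coding gene F26F4.14 (chrIII:4899850-4900028) reached 355, with 205 in replicate 1 and 147 in replicate 2. At sls-2.4 (chrI:4171973-4172368) the signal was 349, with 196 in replicate 1 and 145 in replicate 2. All 4 ranked within the top 68 of each replicate list.

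The strongest peak inside a protein-coding gene was in an intron of zfp-1 (chrIII:8802062-8802192), which encodes a PHD-finger chromatin protein related to human AF10. Its signal was 316, with 157 in replicate 1 and 159 in replicate 2. The nearest protein-coding 5′ end was also one of zfp-1, and the summit lay 681 bp upstream of it. A peak 1723 bp upstream of egl-9 (chrV:10466596-10466991), the prolyl hydroxylase that marks the hypoxia factor HIF-1 for destruction, had 292, with 126 in replicate 1 and 162 in replicate 2. That summit also lay inside the non-coding genes F22E12.9 and F22E12.10. In an intron of Y111B2A.12 (chrIII:12612495-12612890) the signal was 291, with 143 in replicate 1 and 144 in replicate 2. Among the 12 strongest were also introns of pqn-41 (signal 263) and of pbrm-1 (257), the polybromo subunit of a SWI/SNF chromatin remodeller, and intergenic peaks 430 bp from the 3′ end of F40E3.3 (249) and 376 bp from that of xbx-5 (248). Relative to the lower value, the replicates differed most at the peak of tag-340, followed by that of F40E3.3, where replicate 1 had 104 and replicate 2 had 143.

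Members lay at a median of 1335 bp (1204 to 1506) from the nearest protein-coding 5′ end, with quartiles of 789 and 2602 bp and a maximum of 16696 bp. The window sets the lower end of this range, so the distances are a description. Upstream of that end lay 307 of 452 members, among them 63 of the 146 intron members. Of the 307, 111 were 501 to 1000 bp upstream, 98 were 1001 to 2000 bp upstream and 98 were farther. On the downstream side 16 were within 500 bp, 31 between 501 and 1000 bp, 47 between 1001 and 2000 bp and 51 beyond. The median signal was 103 in the bin nearest upstream, 94.4 in the next and 104 beyond 2000 bp. Peaks just inside the window, which the rule left out, lay 491 bp upstream of mars-1 (signal 83.7) and 489 bp upstream of arp-11 (113). Peaks just outside it lay 504 bp upstream of unc-108 (183), 506 bp upstream of K12H4.5 (574), and, inside asic-2, 202 bp past its 5′ end (90.5). In 66 members some other base of the peak reached into a promoter window.

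**Figure D3:**
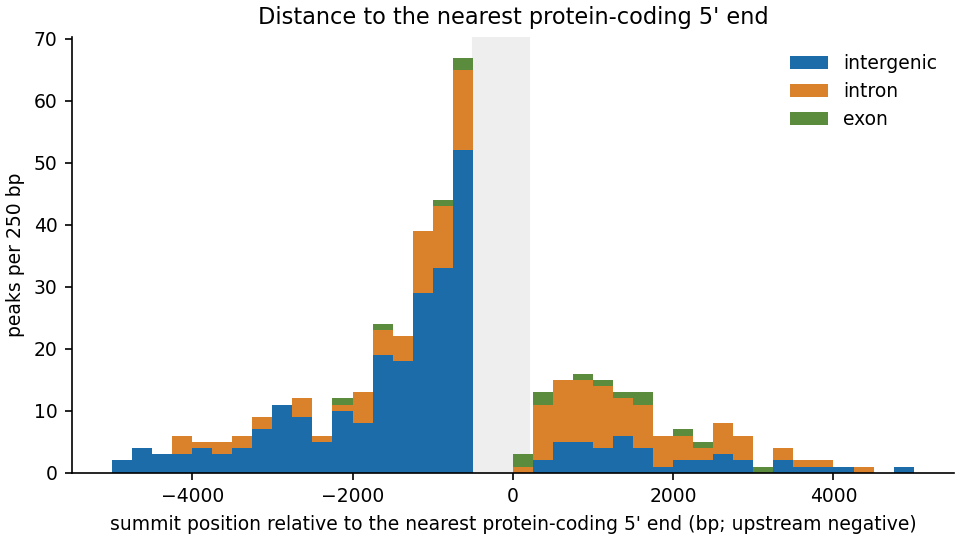
Number of members per 250 bp by the position of the summit relative to the nearest protein-coding 5′ end, in bp with upstream negative, coloured by class and drawn out to 5000 bp; the grey band is the promoter window. Counts are highest just upstream of the window, where intergenic members prevail, and downstream positions are mainly introns.

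Intergenic members lay mostly on the 5′ side of the nearest gene and seldom between convergent genes. Between divergent genes lay 111 of 289, or 38.4% (32.8 to 44.3), and such stretches make up 30.9% of intergenic non-promoter sequence. Between genes in tandem lay 160, or 55.4% (49.4 to 61.2), against 54.3% of the sequence. Between convergent genes lay 18, or 6.23% (3.73 to 9.67), against 14.8% of the sequence. The gene nearest to an intergenic member had its 5′ end on that side in 179 cases, or 61.9% (56.1 to 67.6). The matching share of intergenic sequence was not computed, so this count cannot be read as a trait of the members. By chromosome, members per Mb of non-promoter sequence numbered 8.75 on I, 6.55 on II, 8.90 on III, 6.02 on IV and 3.96 on V, so chromosome V had the lowest density with an interval of 3.07 to 5.03. Chromosome V also had the fewest autosomal IDR peaks of all kinds, 219 against 239 to 340, and members made up 30.6% of them (24.6 to 37.2), against 31.7 to 36.8% on the others. The central 50% of the chromosomes, where conserved genes are dense, held 272 members, or 60.2% (55.5 to 64.7), and 49.0% of the sequence. Promoter peaks had nearly the same central share, 59.9% (56.7 to 63.1).

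Intron members were concentrated in long and in 5′ introns. An intron longer than 1000 bp held 110 of 146, or 75.3% (67.5 to 82.1), and such introns make up 49.1% of intron sequence outside promoter windows. Intron 1 of the host held 53 of 146, or 36.3% (28.5 to 44.7), against 21.2% of the sequence. The median host intron was 2722 bp long. In all, 124 genes hosted an intron member, and 16 of them hosted more than 1. Genes with several were named once their values were known. The 4 peaks of pqn-41, a gene for a glutamine- and asparagine-rich protein, all lay in its intron 14 of 10372 bp, with signals of 263, 200, 154 and 120. The 4 peaks of zfp-1 had signals of 316, 141, 127 and 85.9.

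Other hosts with several peaks were picked for description by their known roles. The gene skn-1, for a bZIP factor that specifies endoderm and mesoderm in the embryo and drives stress responses later, had peaks in its intron 1 at chrIV:5655975-5656370 (signal 183) and chrIV:5657029-5657424 (179). At the first of these replicate 1 had 87.0 and replicate 2 had 98.1, and at the other replicate 1 had 83.7 and replicate 2 had 90.7. The gene let-526, for an ARID subunit of SWI/SNF, had 3 peaks with signals of 167, 141 and 88.4. The gene daf-5, for a Sno/Ski-type partner in the dauer TGF-β pathway, had 3 weak peaks in its intron 1 of 14446 bp, with signals of 85.6, 84.4 and 76.7. The polarity kinase gene par-1 had 2 peaks of 152 and 78.1 whose summits were 203 bp apart and which shared their replicate peaks. The nuclear receptor gene nhr-46 had 2 in its intron 1, with signals of 150 and 117.

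Exon members were few, and of the 17 there were 7 in 3′ untranslated regions, 6 in 5′ untranslated regions and 4 in coding sequence. The strongest was in the 5′ untranslated region of C34C12.2 (chrIII:3456328-3456494), with a signal of 314, 165 in replicate 1 and 151 in replicate 2. It was the only exon member of that strength, since the next, in the 5′ untranslated region of the DNA repair gene agt-2, had 151.

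Non-coding genes stood beside more members than their share of the sequence. In a window of the same extent around the 5′ end of a non-coding gene lay 129 of 452 members, or 28.5% (24.4 to 32.9), against 4.59% of autosomal non-promoter sequence. Piwi-interacting RNA genes were counted apart from these, and their windows, which cover 5.26% of the sequence, held 6 members, or 1.33% (0.489 to 2.87). The class annotated only as ncRNA accounted for most, with 98 members at 125 genes, or 21.7% (18 to 25.8) against 3.80% of the sequence. Windows of antisense RNA and of ribosomal RNA genes held no member, with an exact upper limit of 0.813%, and they cover only 0.0705% and 0.0203% of the sequence, so nothing can be read from these counts. Without the peaks that overlap another IDR peak, 28% of members lay in a non-coding gene window.

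Small nuclear RNA genes, the class to which the annotation assigns the spliced leader genes, had 9 members at 7 of 126 autosomal genes, or 1.99% of members (0.914 to 3.75) against 0.102% of the sequence. Their median signal was 197, and 7 of 9 summits were upstream of the gene at a median over all 9 of 26 bp. Second peaks at sls-2.4 and sls-2.2 are among the 9, and the median value is that of the one at sls-2.4. The lowest signals were at the snRNA genes WBGene00014366 (104), sup-6 (72.9) and WBGene00195000 (72.8). Besides sls-2.1 and sls-2.4, sls-2.2 had a peak of 217 (chrII:5543368-5543763), with 122 in replicate 1 and 97.6 in replicate 2. These genes have near-identical copies, and 18.5% of the 30-base words of the sls-2.1 peak occur more than once in the genome, so some reads may belong to another copy. A second peak lay 201 bp past the first at sls-2.4 (197), 200 bp past it at sls-2.2 (128) and 216 bp past it at sls-2.1 (155), and each pair shared its replicate peaks. That at sls-2.1 fell just beyond the window of the gene and is not among the 9. The snRNA gene WBGene00014543, inside an intron of dhc-4 (chrIII:10989455-10989850), had a peak of 227, with 118 in replicate 1 and 108 in replicate 2. Its annotated name R07E5.16 is shared by 14 genes, and 21.3% of the words of its peak are repeated, so the source of its reads is also uncertain.

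At snoRNA genes lay 26 members, at 27 of 313 autosomal genes. That is 5.75% of members (3.79 to 8.32) against 0.247% of the sequence. The summit was upstream of the gene in 23 of 27 pairs, at a median of 54 bp, and the median signal was 110. The strongest was at M7.15 (chrIV:11082831-11083226), with a signal of 194, 101 in replicate 1 and 84.5 in replicate 2. ZK994.7, in an intron of the peroxidasin gene pxn-1 (chrV:8500344-8500739), followed with 194, 89.6 in replicate 1 and 107 in replicate 2. F32E10.10 (chrIV:7573876-7574271) had 148, with 67.2 in replicate 1 and 78.3 in replicate 2.

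The sequences before these snoRNA genes often held letters of the B box, as in the 4 examples printed above. Within 100 bases upstream, on the strand of the gene, GTTCGA was present at 11 of the 27 snoRNA genes with a member (40.7%) and at 22 of all 313 (7.03%). With GTTCNA the counts were 14 of 27 (51.9%) and 54 of 313 (17.3%). This count was chosen after the sequences were seen and has no test. Of the 7 snRNA genes with a member none had either, where 0 of all 126 had GTTCGA and 17 (13.5%) had GTTCNA, too few to set the 7 apart.

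At tRNA genes lay 13 members, at 13 of 336 autosomal genes, or 2.88% (1.54 to 4.87) against 0.259% of the sequence. Inside the tRNA gene itself lay 8 of 13 summits, where 3 of 27 were inside a snoRNA gene, a difference that was not tested. The median was 10 bp downstream of the 5′ end. The median signal was 85.8. The strongest was at WBGene00022955 in an intron of cye-1 (chrI:6781673-6782068), the cyclin E gene, with a signal of 172, 98.8 in replicate 1 and 73.5 in replicate 2. The tRNA gene printed above, WBGene00022907, was under a peak of 101 (chrII:6853016-6853411), with 56.1 in replicate 1 and 46.7 in replicate 2.

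MicroRNA genes had 5 members, or 1.11% (0.360 to 2.56) against 0.143% of the sequence. The peak at cel-mir-52 (chrIV:14033821-14034216), a microRNA of the embryonically essential mir-51 family, had a signal of 184, with 91.9 in replicate 1 and 89.0 in replicate 2. Its summit was 11 bp inside the precursor, and the nearest protein-coding gene was 8576 bp away. The peak 449 bp upstream of cel-mir-1, a muscle microRNA, had 145, with 61.6 in replicate 1 and 82.3 in replicate 2. Long intergenic RNA genes had 4 members, or 0.885% (0.242 to 2.25) against 0.129% of the sequence. The strongest lay 312 bp upstream of linc-60 with a signal of 220.

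**Figure D4:**
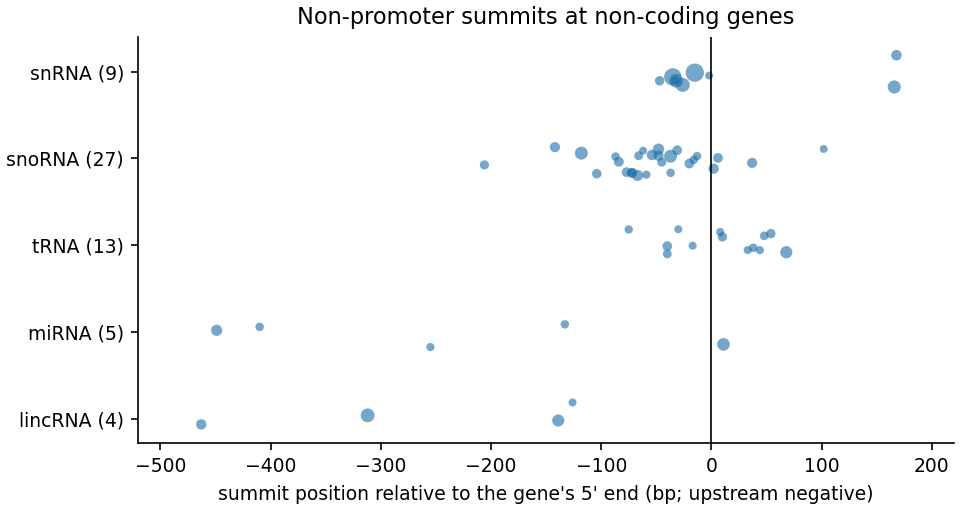
Summit position relative to the 5′ end of snRNA, snoRNA, tRNA, microRNA and lincRNA genes in bp, with upstream negative and the 5′ end marked by a line; point area is proportional to signal and the numbers count summit and gene pairs. Upstream of the gene lie 7 of 9 snRNA and 23 of 27 snoRNA summits, and 8 of 13 tRNA summits lie inside the gene.

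Of the 20 motifs searched, a repeat of GA was the most frequent at the centres of non-promoter peaks. The motifs were chosen with earlier results of these data known, and no search for other sequences was run. GAGAGA or its complement TCTCTC lay within 50 bp of the summit of 208 of 452 members, or 46%, and in flanks of the same total length centred 200 bp away in 64, or 14.2% (exact McNemar test, two-sided, adjusted exact p = 1.73e-25 over 20 motifs). Promoter peaks had it at 166 of 911 centres, or 18.2%, an odds ratio of 3.82 (2.96 to 4.95; Fisher's exact test, adjusted exact p = 7.51e-25). Of all 100-bp windows outside promoters on the autosomes, 4.98% contain it. Intergenic members had it in 45.0% (39.2 to 50.9), intron members in 50% (41.6 to 58.4) and exon members in 29.4% (10.3 to 56.0). The share was 57.5% among the 113 members of highest signal and 34.5% among the 113 of lowest signal. An unbroken GA or TC run of at least 10 bases was present at 48 members (10.6%) and at 13 promoter peaks (1.43%). The longest, of 50 bases, was at a peak upstream of vhp-1, a MAP kinase phosphatase gene, with a signal of 86.3, and the next, of 38 bases, in an intron of ell-1 with a signal of 112.

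The GA repeat was seldom found at members beside small RNA genes. Of 48 members in a window of an snRNA, snoRNA or tRNA gene, 3 had GAGAGA (6.25%, 1.31 to 17.2), and of the other 404 members 205 had it (50.7%, 45.8 to 55.7). The B box core GGTTCGA ran the other way, with 10 of 48 (20.8%, 10.5 to 35) and 3 of 404 (0.743%, 0.153 to 2.15). By class it was at 6 of 26 snoRNA, 4 of 13 tRNA and 0 of 9 snRNA members. The B box is part of tRNA genes, so its presence at them is partly given in advance. These splits are descriptions with no test.

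Of the 20 motifs compared between centre and flanks, 3 (15%) were called higher and 4 (20%) lower at the centres of members at an adjusted p of 0.05. Besides the GA repeat, GCGTCTC, the core of a motif of C. elegans promoters, was at 13.9% of centres against 1.99% of flanks (adjusted exact p = 7.39e-11). GGTTCGA was at 2.88% of centres against 0.221% of flanks (adjusted exact p = 0.00732), and this call was lost with flanks 300 bp away (adjusted exact p = 0.0532) and among the 813 peaks of higher signal (0.125). Lower at centres was the GATA factor site TGATAA, at 3.10% of centres against 13.5% of flanks (adjusted exact p = 2.69e-08). So was the homeodomain core TAATTA, at 0.664% against 4.87% (adjusted exact p = 0.000783). Of all 100-bp windows outside promoters, 8.95% contain TGATAA and 4.50% TAATTA. With flanks 300 bp away the difference was −6.42 percentage points for TGATAA, against −10.4 at 200 bp. For TAATTA it was −5.97, against −4.20. Without replicate 1 the difference was −6.56 percentage points for TGATAA, against −10.4 with both, and the TAATTA call was lost (−2.84, adjusted exact p = 0.0689). The TATA box TATAAA was at 5.09% against 9.73% (adjusted exact p = 0.0357), and the heat shock element GAANNTTC at 2.43% against 6.86% (adjusted exact p = 0.00962). The TATAAA call was lost with the window of 1000 bp upstream (adjusted exact p = 0.0532), among the 813 peaks (0.528) and without soft-masked peaks (0.0707), while without replicate 2 its difference was −7.69 percentage points, against −4.65 with both. The GAANNTTC call was lost when no base could touch a promoter (adjusted exact p = 0.0695), among the 813 peaks (0.528) and without replicate 2, where the difference was −2.17 percentage points, against −4.42 with both (adjusted exact p = 0.342). The median GC content was 47% at centres and 37% in flanks, and its part in these differences was not tested. AGGTCA, the receptor core, occurred at 2.21% of centres, in 2.43% of flanks and in 2.30% of all 100-bp windows outside promoters. At promoter peaks GAGAGA (18.2% of centres against 8.45% of flanks) and GCGTCTC (11.2% against 1.32%) were also called higher. TGATAA (3.18% against 9.33%), TAATTA (1.65% against 6.15%) and TATAAA (5.60% against 10.3%) were also called lower there. These contrasts are thus not particular to non-promoter peaks. GGTTCGA (0.439% against 0.329%) and GAANNTTC (6.26% against 7.68%) were not called at promoter peaks. All motifs were searched on both strands, and the letters of one can overlap those of another.

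Against promoter peaks, 5 of 20 motifs (25%) were called, 2 higher and 3 lower at non-promoter peaks. GAGAGA and GGTTCGA were higher, GGTTCGA with 2.88% of non-promoter and 0.439% of promoter centres (odds ratio 6.70, adjusted exact p = 0.00197, with limits of 2.06 and 28.4). Most members with GGTTCGA, 10 in all, lay in a window of an snRNA, snoRNA or tRNA gene. Of the other 404 members 3 had it (0.743%), and 0.753% of all 100-bp windows outside promoters contain it. The lowest odds ratio was CGAGACC, at 6 of 452 non-promoter centres (1.33%) and 96 of 911 promoter centres (10.5%), an odds ratio of 0.114 (0.0406 to 0.261, adjusted exact p = 1.11e-10). This motif was listed because earlier results of these data had named it. Its p-value therefore describes the same peaks again and is not separate support. CCCGCC, a letter run of E2F and GC-box sites, was at 3.32% of non-promoter and 7.68% of promoter centres (odds ratio 0.413, adjusted exact p = 0.00629). GAANNTTC was at 2.43% of non-promoter and 6.26% of promoter centres (odds ratio 0.374, adjusted exact p = 0.00850). GCGTCTC did not pass the test, with 13.9% of non-promoter and 11.2% of promoter centres (adjusted exact p = 0.412; odds ratio 1.28 with limits of 0.901 and 1.82), but it was called higher (adjusted exact p = 0.0230, odds ratio 1.60) where promoters reached 300 bp upstream and 100 bp downstream. The calls on CCCGCC and GAANNTTC were both lost with that window (adjusted exact p = 0.110 for both), with 1000 bp upstream and 200 bp downstream (0.117 for both), among the 813 IDR peaks of higher signal (0.157 and 0.0563) and without replicate 2 (0.0763 and 0.178), where the odds ratio of GAANNTTC was 0.590. That on GAANNTTC was also lost without the peaks at least 50% soft-masked (adjusted exact p = 0.0985), and that on GGTTCGA among the 813 peaks (adjusted exact p = 0.0598).

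**Figure D5:**
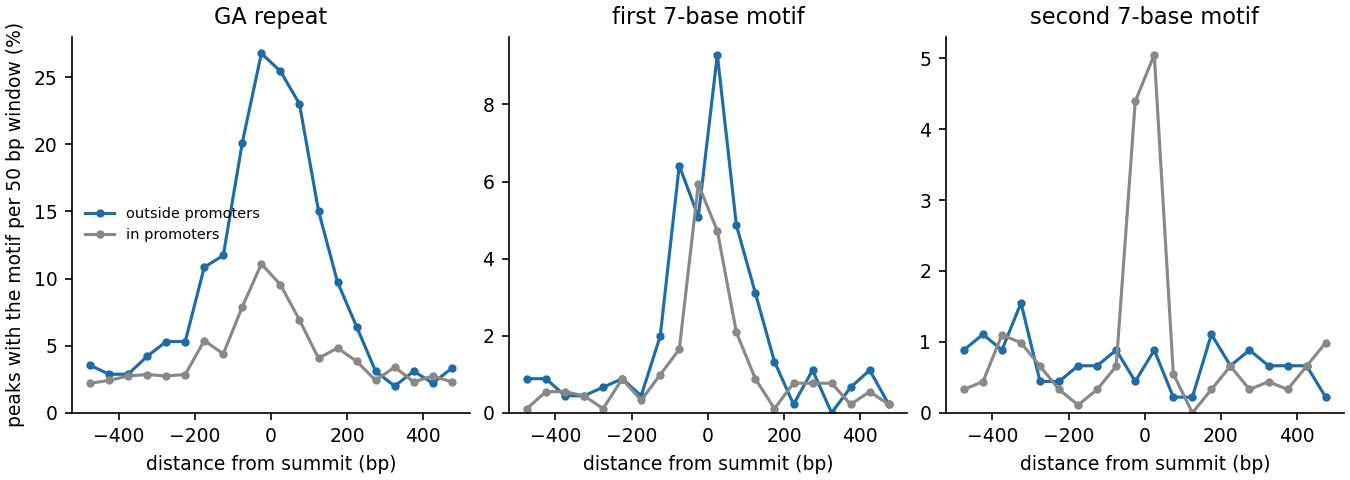
Share of peaks with GAGAGA (GA repeat, left), GCGTCTC (the first 7-base motif, middle) and CGAGACC (the second 7-base motif, right) on either strand, per 50-bp window by distance from the summit in bp, in non-promoter peaks (blue) and promoter peaks (grey). GAGAGA reaches 26.8% of non-promoter and 11.1% of promoter peaks just left of the summit, and CGAGACC reaches 5.05% of promoter peaks where non-promoter peaks have 0.885%.

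Hosts and near neighbours of members made up 338 of 17242 autosomal protein-coding genes, or 1.96%, counting genes that hold a member and the nearest gene within 2000 bp of an intergenic one. Nuclear hormone receptor genes were close to this share, with 5 of 247 (2.02%). These were nhr-19 (signal 161, in an intron), nhr-46, nhr-102 (124, downstream and beside snoRNA T06C12.16), nhr-10 (84.8) and nhr-62 (80.0). Homeobox genes (0 of 69), cytosolic ribosomal protein genes (0 of 79) and proteasome subunit genes (0 of 33) had none. Collagens had 5 of 129 (3.88%), chaperones 2 of 60 (3.33%) and histones 1 of 76 (1.32%).

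The lists of developmental regulators were short, so each rests on a few genes. Basic helix-loop-helix factors had 2 of 31 (6.45%). These were hif-1, the hypoxia factor, with a peak of 197 located 1909 bp upstream (chrV:20778300-20778695), where replicate 1 had 105 and replicate 2 had 95.8, and hlh-30, a TFEB-type regulator of autophagy, with a peak of 90.5 in an intron. GATA, T-box, forkhead and Sox-type factors had 3 of 38 (7.89%), namely pha-4, the FoxA factor of pharynx identity (91.9), daf-16, the FoxO factor of insulin signalling (87.5), and egl-27 (83.1). Wnt pathway genes had 2 of 25 (8%), the Nemo-like kinase gene lit-1 (114.9) and the casein kinase gene kin-19 (112), and adhesion and guidance genes had 1 of 29 (3.45%), the cadherin gene hmr-1 (92.0). No autosomal IDR peak lay within 20000 bp of nhr-237 itself or of unc-119.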

How the data were processed

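NHR-237 with an eGFP tag was mapped by ChIP-seq in mixed-stage embryos, 2 replicates in all, from libraries of 150 to 350 bp per the labels. The regions of each replicate were called with a control alignment as background, per the deposited text listings, and that alignment was not used here. For the aligner, the caller and the IDR threshold, the names and settings were not given in the sources. Signal values are those the authors deposited, unscaled between lists. The deposited −log10 q-values were not tested. Replicate lists were deposited per replicate, and the IDR list for both together.

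Positions are 1-based on ce11. Sequence was read from the RefSeq WBcel235 genome, which is the same build, and genes are those of Ensembl release 115. Names shared by several genes were resolved by gene ID. A class was assigned by the summit, which was the peak's midpoint for 447 of 452 members. Protein-coding exons took precedence over introns, and intergenic means inside no protein-coding gene, although other genes may lie there. Replicate support needed an overlap of 1 bp. Repeated sequence was counted as 30-base words that occur more than once in the genome on either strand, and 5 members had at least 50% such words.

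Signal was compared by Fisher's exact test on the share above the autosomal median, motifs by the exact McNemar test within peaks and Fisher's exact test between peak sets, all two-sided with Benjamini-Hochberg adjustment and a threshold of 0.05. Intervals are 95% Clopper-Pearson intervals for shares, exact Poisson intervals for densities, exact conditional intervals for odds ratios and order-statistic intervals for medians, and cover counting error only. Members, gene lists and motifs were chosen with earlier results of these data known. Named members were the 12 of highest signal, the 5 highest per class, the 3 highest per non-coding biotype, those nearest the window's edges, and up to 3 per gene list; others are said to be chosen after their values were seen. Alternatives were other promoter windows, the midpoint, a rule without any promoter base, the 813 IDR peaks of higher signal, the top 1626 peaks of each replicate alone, other flanks, a distance rule of 200 bp for non-coding genes, a limit of 5000 bp for neighbours and summits within 100 bp. Leaving out soft-masked or overlapping peaks was chosen after seeing the data. The motif tests were tried on random autosomal positions outside promoters, with and without planted GAGAGA. The window and motif search code was tried on toy examples. Other steps were not tested in this way. Software was Python 3.11.15 with scipy 1.17.1, pandas 2.3.3, numpy 2.4.6 and, for plots, matplotlib 3.10.9.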

Additional observations from a re-analysis of the deposited data

How the results depend on the processing

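No paired analysis was possible because there is a single group of 2 replicates. With a promoter window of 300 bp upstream and 100 bp downstream, the non-promoter share of autosomal peaks moved to 45.4%, the intron share to 26.7%, the intergenic share to 69.5% and the median distance to 938 bp; 7 motifs were then called higher at the centre and 1 lower than in promoter peaks. With 1000 bp upstream and 200 bp downstream, the non-promoter share was 24.3%, the median distance 1791 bp, and 1 motif was lower than in promoter peaks. The shares and distances follow from where the window ends; the cause of the changed motif counts was not tested. The odds ratio of being above the median signal was 0.770 with the wide window (adjusted exact p = 0.0863). It was 0.811 when no base could touch a promoter (adjusted exact p = 0.178). That rule left a non-promoter share of 28.3% and a median distance of 1587 bp. With the window of 300 bp upstream and 100 bp downstream the odds ratio was 0.732 (adjusted exact p = 0.00933). For the 813 peaks of higher signal, against their own autosomal median, it was 0.583 (adjusted exact p = 0.00369). Among the 813 IDR peaks of higher signal the non-promoter share was 30.5%, 2 motifs were lower at the centre, and 1 was higher and 1 lower than in promoter peaks; fewer peaks were tested. The peaks of a single replicate gave non-promoter shares of 33.7 to 37.3%, odds ratios of 0.576 to 0.672, motif counts of 3 higher and 3 lower at the centre, and 2 to 3 higher and 2 to 4 lower than in promoter peaks. Summits within 100 bp in both replicates held for 92.5% of members. The other 78 values of these results under an alternative stayed within their interval, or within 1.5 times for a count, or on the same side of the threshold. For single motifs, 312 values kept their call, 19 lost one and 9 gained one, and none reversed. GAGAGA was called in both comparisons under every alternative run for it. GGTTCGA was not called in the 813 peaks with the higher signal values (adjusted exact p = 0.125 against flanks and 0.0598 against promoter peaks) and, against flanks, with flanks 300 bp away. With no read counts, the depth behind the signal values is unknown.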

Other observations

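Members crowded at some genes outside the comparisons above. Around din-1, a gene for a corepressor partner of the nuclear receptor DAF-12, 5 members lay within 4950 bp, 4 of them upstream of the gene. Their signals were 171, 111, 95.7, 92.0 and 77.8, and the one of 111 was at the snoRNA gene ZK20.9. At dmd-6, a gene of the doublesex-type DM domain family, 3 members had it as the nearest gene, with signals of 76.9 to 125. Of 447 pairs of neighbouring members on a chromosome, 16 had summits within 1000 bp, and the median spacing was 99364 bp. The closest summits were 199 bp apart, and the median peak width was 396 bp. In all, 27 members overlapped another IDR peak, so close pairs need not be separate sites.

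A few members lay in sequence that occurs elsewhere in the genome. At 5 members at least 50% of the 30-base words were repeated, up to 81.5% at a peak near unc-85, and 2 of the 5 were near K08F11.1 (signals 151 and 107). Reads of such sequence can be placed at more than 1 site, so these positions are uncertain.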
